A study of Mus musculus with 21 samples.

Results

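Metallothioneins and oxidative stress response genes were described in Nes low bone marrow mesenchymal cells of mice with and without human AML. The genes were Mt1, Mt2, Hmox1, Nqo1, Gclm, Gclc, Srxn1, Txnrd1, Fth1 and Gpx3, chosen by name, and they are 10 of the 26852 genes in the deposited expression table. All 10 passed the filter on low values. RNA-seq was available for 21 libraries of cells sorted by FACS from Nestin-GFP NSG mice, an immunodeficient strain in which regulatory elements of Nestin drive green fluorescent protein, so that the sorted population is defined by a transgene. All recipients were 8 to 12 weeks old at transplantation. The leukemic mice received HL60 or ML1, human AML cell lines that carry a secreted form of mCherry that crosses membranes and labels neighbouring cells. The ctrl group (n = 3) came from mice without leukemia. At the early stage of low engraftment, cells that had taken up the label (ch+) and cells that had not (ch-) were sorted apart, with 3 libraries per cell line in each. The study took both from the same bone marrow, but the labels do not tell which libraries share a mouse, and the fits treat them as independent. Blood cells were depleted with beads against human and mouse CD45 before the sort, and the cells left were stained for CD45, Ter119 and CD31. The late group came from mice with high engraftment, again with 3 libraries per cell line. The treatment label of the ML1 late libraries describes mice without engraftment, whereas their titles and time points say late, and they were kept as late.

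Metallothioneins are small cysteine-rich proteins that bind zinc and copper, and their genes are induced by metals through the factor MTF1, by glucocorticoids and by oxidants. Most of the other genes are classical targets of the transcription factor NRF2 (Nfe2l2), which is held back by KEAP1 and, when released by oxidants or electrophiles, acts through antioxidant response elements shared with small MAF proteins and the repressor BACH1. Their products make glutathione, reduce thioredoxin and oxidized peroxiredoxins, degrade heme and store iron, and in the bone marrow such enzymes are known to limit the oxidants that reach stem cells and leukemic cells.

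Values are the regularized log2 values of normalized counts deposited by the authors, in which weakly expressed genes are pulled toward their mean. The depth of each library is unknown, because whole reads cannot be recovered, so the precision of a value can be judged only from the replicates. Summed after conversion from log2, the normalized signal came to 11862600 to 14229400 per library in ctrl and to 7265000 to 9022200 in late. Scaling each library to the mean of these sums took the middle value of the late changes of all tested genes from 0.02 to 0.71 on the log2 scale, and late changes are therefore also given below relative to that median. Genes under an adjusted p of 0.1 in limma, over the 12976 genes with a mean of at least 3.32 on the log2 scale, are called deregulated. Single libraries that stood apart were HL60 late replicate 398, the highest of all 21 libraries for Mt1, Mt2 and Fth1, and ctrl replicate 375, the lowest of all 21 for 4 of the 10 genes, where 7.24% of all tested genes were lowest.

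In late Nes low cells, 6 of the 10 genes were higher than in ctrl and none was lower, where 21.5% of all tested genes were deregulated and 10.2% were higher. The 6 were Hmox1, Gclm, Gclc, Srxn1, Fth1 and Gpx3, whereas Mt1, Mt2, Nqo1 and Txnrd1 did not pass the test. The count fell to 3 of 10 without ctrl replicate 375 and to 2 of 10 without the 3 ML1 late libraries, where 17% and 12.4% of all tested genes were called. The median change of the 10 genes on the log2 scale was 0.75 in late, beside 0.02 for all tested genes. Without ctrl replicate 375, Mt1 (−0.06) turned from higher to lower in late, and Gclm (0.63), Gclc (0.54) and Srxn1 (0.71) came to smaller changes. Hmox1 and Txnrd1 came to larger changes. The late median thus rests in part on that library. In early ch+ cells, Gclm and Fth1 were higher than in ctrl (2 of 10, where 6.17% of all tested genes were deregulated and 3.41% were higher), and the median of the 10 genes was 0.55 beside 0.01. Without ctrl replicate 375 the ch+ count was 0 of 10 in limma, where 4.89% of all tested genes were called. Mt1 (−0.24) and Gclc (−0.09) then turned from higher to lower, and Gclm (0.59) and Fth1 (0.45) came to smaller changes. The median of 0.55 thus depends on that library. In early ch- cells, 0 of 10 were called by limma against ctrl, and 0 of 10 had an unadjusted p under 0.05, where 1.92% of all tested genes were deregulated and 1549 had an unadjusted p under 0.05. The median of the 10 genes was 0.27 there, beside 0.01 for all tested genes. Without ctrl replicate 375, Mt1 (−0.16), Gclc (−0.21) and Srxn1 (−0.26) turned from higher to lower in ch- cells, and the other genes kept their direction. This median thus depends on that library. These comparisons share the same 3 ctrl libraries.

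Early ch+ cells were also compared with early ch- cells, and late cells with early ch+ cells, comparisons in which ctrl enters the estimate of spread alone. Fth1 was higher in ch+ than in ch- cells (1 of 10, where 6.26% of all tested genes were deregulated and 3.58% were higher). Txnrd1 and Gpx3 were higher in late than in early ch+ cells (2 of 10, where 19.7% of all tested genes were deregulated and 8.79% were higher). With scaling to the library totals, Mt1, Mt2, Hmox1, Gclm, Gclc, Srxn1 and Fth1 were also called in late against ch+. That scaling called 9031 genes there, of which 93.49% were higher. The median of the 10 genes was 0.16 in the former comparison and 0.34 in the latter, beside −0.02 and 0.02 for all tested genes.

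Taken by cell line, Fth1 and Gpx3 were higher than ctrl in HL60 late cells (2 of 10, where 13.7% of all tested genes were deregulated and 6.46% were higher). In ML1 late cells, the same 6 genes as in the pooled late group were higher (6 of 10, where 22% of all tested genes were deregulated and 9.89% were higher). With scaling to the library totals, the genes also called included Mt1, Mt2, Gclm and Gclc in HL60 late cells and Mt2 in ML1 late cells. Hmox1, Srxn1, Txnrd1 and Nqo1 then read 1.17, 1.21, 0.75 and 0.77 with HL60. Nqo1 and Txnrd1 read 1.45 and 1.26 with ML1. Whether these changes passed the test under this scaling is not given here. That scaling called 5527 genes with HL60 and 8781 with ML1, of which 93.14% and 93.05% were higher. Hmox1 was the gene higher in HL60 early ch+ cells (1 of 10, where 5.33% of all tested genes were deregulated and 2.87% were higher), and Fth1 the gene higher in ML1 early ch+ cells (1 of 10, where 6.69% were deregulated and 3.47% were higher). Between ch+ and ch- cells, 1 of 10 was higher with ML1, again Fth1, where 4.25% of all tested genes were deregulated and 2.34% were higher. With HL60 the count was 0 of 10 in limma, where 3.92% of all tested genes were deregulated, and Gpx3 was the gene with an unadjusted p under 0.05. In ch- cells against ctrl, limma called 0 of 10 with HL60 and 0 of 10 with ML1, none had an unadjusted p under 0.05, and the shares of all tested genes were 1.57% and 2.34%.

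The lines themselves were compared within each stage, and none of the 10 genes passed that test. In late cells, limma called 0 of 10 between HL60 and ML1, where 4.09% of all tested genes were deregulated, and Hmox1 and Srxn1 had an unadjusted p under 0.05. In early ch+ cells it called 0 of 10, where 0.0154% of all tested genes were deregulated, and Hmox1 and Fth1 had an unadjusted p under 0.05. In early ch- cells it called 0 of 10, where 0.0539% were deregulated, and Gpx3 had an unadjusted p under 0.05. In this fit a call in HL60 or in ML1 alone is thus not shown to differ between the lines. The late differences of Hmox1 and Srxn1 were called under some alternatives, as given below.

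**Figure D1:**
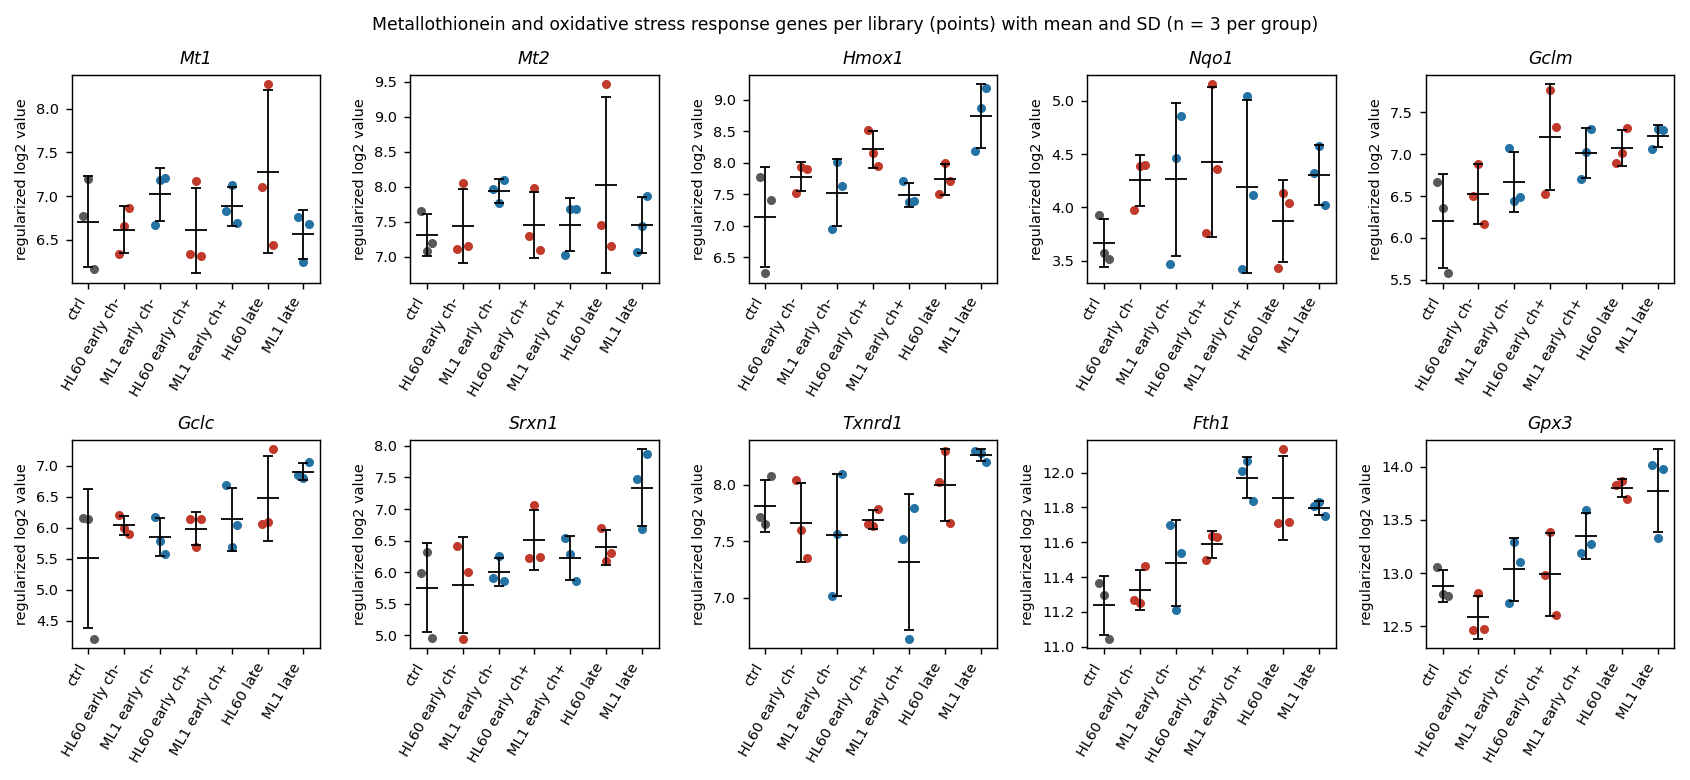
Regularized log2 value (y axis) of each of the 10 genes in each library (points, colored by cell line) for ctrl and the 6 leukemic groups (x axis), with the mean and SD of the 3 libraries of each group. The 6 late libraries of Gpx3 sit between 13.33 and 14.02, all above the ctrl libraries at 12.79 to 13.05, and Mt2 in HL60 late replicate 398 reaches 9.47.

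Mt1 (ENSMUSG00000031765, chr8:94179082-94180327 on the plus strand, GRCm38) and Mt2 (ENSMUSG00000031762, chr8:94172664-94173568, same strand) encode the widely expressed metallothioneins and lie 5513 bases apart. Mt1 was 6.77, 7.19 and 6.16 in the ctrl libraries. It was 6.34, 6.66 and 6.86 in HL60 ch-, 6.67, 7.18 and 7.21 in ML1 ch-, 6.33, 7.17 and 6.32 in HL60 ch+, and 6.83, 7.13 and 6.69 in ML1 ch+. In late cells Mt1 was 7.11, 8.28 and 6.44 with HL60 and 6.76, 6.24 and 6.69 with ML1. All groups overlapped ctrl, and 1 library, HL60 late replicate 398, lay above the rest. By group mean Mt1 ran from 6.56 ± 0.28 (SD, n = 3) in ML1 late to 7.28 ± 0.93 (SD, n = 3) in HL60 late, and no step between neighbouring groups in this order exceeded their SDs. Its log2 fold change in late against ctrl was 0.21 (SE 0.34, limma adjusted p = 0.762), with 1 of 6 late libraries above every ctrl library. It was −0.06 without ctrl replicate 375 and −0.06 without HL60 late replicate 398.

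Mt2 was 7.65, 7.08 and 7.19 in ctrl. Mt2 at the early stage was 7.10, 8.06 and 7.16 in HL60 ch-, 7.96, 7.76 and 8.09 in ML1 ch-, 7.29, 7.99 and 7.10 in HL60 ch+, and 7.02, 7.68 and 7.68 in ML1 ch+. Its values in late cells were 7.45, 9.47 and 7.15 with HL60 and 7.07, 7.43 and 7.87 with ML1. The 3 ML1 ch- libraries all lay above ctrl and above ML1 ch+, neither difference passed the test, and the other groups overlapped ctrl. From ctrl (7.31 ± 0.30, SD, n = 3) to HL60 late (8.02 ± 1.26, SD, n = 3), the step from ML1 late (7.46 ± 0.40) to ML1 ch- (7.94 ± 0.17) was the one that exceeded the SDs of the neighbouring groups. The late change was 0.43 (SE 0.36, limma adjusted p = 0.488), with 2 of 6 late libraries above every ctrl library, and it was 0.09 without HL60 late replicate 398. An antisense gene, Gm45774, overlaps Mt2, and its own values were low, 3.81 to 5.33 over the 21 libraries.

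Against ctrl, the late change of Mt1 was 0.57 with HL60 and −0.15 with ML1, that of Mt2 was 0.72 with HL60 and 0.15 with ML1, and none of these passed the limma test. Without HL60 late replicate 398, Mt1 with HL60 came to 0.07 and Mt2 to −0.01, and Mt2 was called (1.15, limma adjusted p = 0.0986) without HL60 late replicate 399. The difference between the lines was 0.71 (SE 0.38, limma adjusted p = 0.541, 2 of 3 HL60 libraries above every ML1 library) for Mt1, and 0.21 without replicate 398. For Mt2 it was 0.56 (SE 0.40, limma adjusted p = 0.75, 1 of 3 libraries above), and −0.16 without replicate 398. With scaling to the library totals, Mt1 (0.90) and Mt2 (1.13) passed the test in late, as did both with HL60 (1.14 and 1.29) and Mt2 with ML1 (0.97). Mt1 in ML1 late turned from −0.15 to 0.67 and did not pass. Relative to the median of all genes, Mt1 and Mt2 in late stood at 0.19 and 0.41 under either scale, with replicate 398 included. In the same terms they stood at 0.56 and 0.71 with HL60 and at −0.17 and 0.12 with ML1.

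HL60 late replicate 398 held the highest value of all 21 libraries for 3 of the 10 genes, beside 3.98% of all tested genes. Mt1 was 8.28 there against 7.21 at most elsewhere, Mt2 9.47 against 8.09, and Fth1 12.13 against 12.07. Of a list of 10 genes known to respond to glucocorticoids, 6 were also highest in this library. Among them, Fkbp5, which tempers the glucocorticoid receptor, was 7.73 against 6.68 at most elsewhere, Tsc22d3, an anti-inflammatory mediator, 9.98 against 8.87, and Zbtb16, a transcription factor, 8.02 against 7.47. The clock gene Per1 was 9.55 against 8.95, Klf9 10.41 against 10.00 and Klf15 5.77 against 5.74. Nr3c1, the receptor itself, was lowest there at 9.28. No gene of the lists of metal handling and of heme and iron handling was highest in this library. Mtf1, the gene of the metal-sensing factor, was 7.66 there against 8.97 at most elsewhere. Txnip, the inhibitor of thioredoxin, was 12.30 against 11.39, whereas none of the other 14 genes of the thioredoxin and peroxiredoxin list was highest in this library, and Prdx2 was lowest there at 7.19. The part of these genes in the metallothionein values was not tested.

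**Figure D2:**
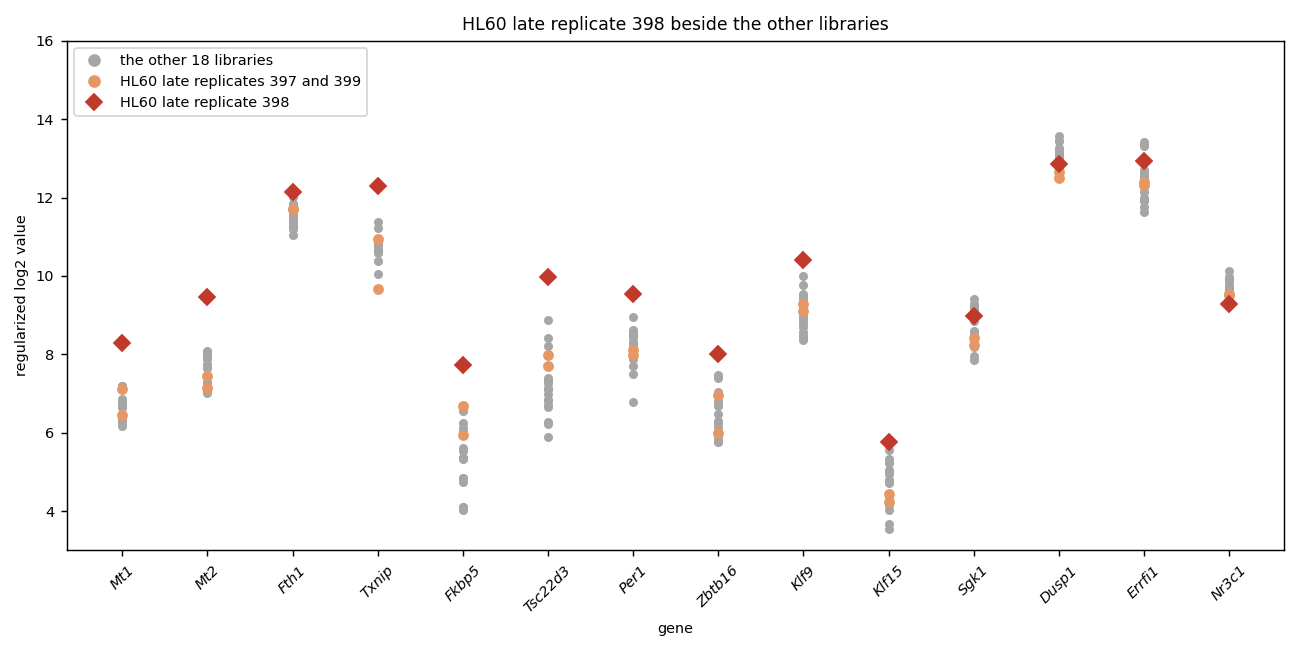
Regularized log2 value (y axis) of Mt1, Mt2, Fth1, Txnip and 10 glucocorticoid-responsive genes (x axis) in HL60 late replicate 398 (diamond), the other HL60 late libraries (orange) and the other 18 libraries (gray). Mt2 was 9.47 in replicate 398 and at most 8.09 elsewhere, and Nr3c1 was lowest in replicate 398 at 9.28.

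Hmox1 (ENSMUSG00000005413, chr8:75093621-75100589, plus strand) encodes heme oxygenase, which breaks heme down to biliverdin, carbon monoxide and iron. It was 7.77, 6.24 and 7.41 in ctrl. Early values of Hmox1 were 7.52, 7.93 and 7.90 in HL60 ch-, 6.94, 8.01 and 7.63 in ML1 ch-, 8.53, 8.15 and 7.95 in HL60 ch+, and 7.71, 7.38 and 7.39 in ML1 ch+. Late Hmox1 values were 7.50, 7.99 and 7.72 with HL60 and 8.19, 8.87 and 9.18 with ML1. The ML1 late libraries were all above ctrl and above HL60 late, the HL60 ch+ libraries were all above ctrl and above ML1 ch+, and HL60 late overlapped ctrl. From low to high, the group means were ctrl (7.14 ± 0.80), ML1 ch+ (7.49 ± 0.19), ML1 ch- (7.53 ± 0.54), HL60 late (7.74 ± 0.24), HL60 ch- (7.78 ± 0.23), HL60 ch+ (8.21 ± 0.29) and ML1 late (8.75 ± 0.51, SD, n = 3 each), with steps beyond the SDs of the neighbours for HL60 ch+ and ML1 late.

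Hmox1 was higher in late cells by 1.10 (SE 0.34, limma adjusted p = 0.0239), with 4 of 6 late libraries above every ctrl library. The call was lost without ctrl replicate 374, the lowest of the 21 libraries for this gene (0.65, limma adjusted p = 0.271), and without the 3 ML1 late libraries (0.60). With ML1 alone the change was 1.61 (SE 0.33, limma adjusted p = 0.000443, 3 of 3 libraries above ctrl) and kept its call with each library left out, and with HL60 it did not pass. The difference between the lines in late cells, −1.01 (SE 0.33, limma adjusted p = 0.102, 3 of 3 HL60 libraries below every ML1 library), missed the threshold. It was called when only the compared groups were fitted (limma adjusted p = 0.0168), with totals scaling (0.0249) and with a filter at a mean of 5 (0.0857), and also without ctrl replicate 373 or 374, ML1 ch- replicate 543 or 544, or ML1 late replicate 581 (−1.29 in the last case, −1.01 in the others).

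In HL60 ch+ cells Hmox1 was higher than in ctrl by 1.07 (SE 0.33, limma adjusted p = 0.0644, 3 of 3 libraries above ctrl). This call was lost without ctrl replicate 374 (0.62), HL60 ch+ replicate 523 (0.91) or HL60 ch+ replicate 524 (1.10). It was also lost with no filter, with no variance trend and when only the compared groups were fitted. The difference between HL60 and ML1 ch+ cells was 0.72 (SE 0.33, limma adjusted p = 0.627, 3 of 3 libraries above). The pooled ch+ and ch- changes against ctrl, 0.71 and 0.51, did not pass, and without ctrl replicate 374 they were 0.26 and 0.07.

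Fth1 (ENSMUSG00000024661, chr19:9980598-9985098, plus strand) encodes the heavy chain of ferritin, the subunit that oxidizes iron for storage. It was 11.36, 11.30 and 11.05 in ctrl. Fth1 at the early stage was 11.27, 11.25 and 11.46 in HL60 ch-, 11.70, 11.21 and 11.54 in ML1 ch-, 11.50, 11.64 and 11.63 in HL60 ch+, and 12.01, 12.07 and 11.84 in ML1 ch+. Its values in late cells were 11.71, 12.13 and 11.72 with HL60 and 11.81, 11.83 and 11.75 with ML1. All 6 ch+ and all 6 late libraries lay above every ctrl library, whereas ch- overlapped ctrl. HL60 late libraries were all above HL60 ch+ and ML1 late libraries all below ML1 ch+, differences that were not tested by line. From low to high the means were ctrl 11.24 ± 0.17, HL60 ch- 11.33 ± 0.12, ML1 ch- 11.48 ± 0.25, HL60 ch+ 11.59 ± 0.08, ML1 late 11.80 ± 0.04, HL60 late 11.85 ± 0.24 and ML1 ch+ 11.97 ± 0.12 (SD, n = 3 each), and the step from HL60 ch+ to ML1 late was the one beyond the SDs of its neighbours.

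Fth1 was higher in late cells by 0.59 (SE 0.14, limma adjusted p = 0.00329, 6 of 6 libraries above ctrl), with 0.62 for HL60 and 0.56 for ML1, both called with 3 of 3 libraries above ctrl (limma adjusted p = 0.00279 and 0.00401). The late call held with each of the 21 libraries left out (0.49 to 0.65). In ch+ cells it was higher by 0.54 (SE 0.14, limma adjusted p = 0.0232, 6 of 6 libraries above ctrl), a call lost without ctrl replicate 375 (0.45). With ML1 the ch+ change was 0.73 (SE 0.14, limma adjusted p = 0.00117, 3 of 3 libraries above ctrl), and with HL60 it was 0.35 (limma adjusted p = 0.195, 3 of 3 libraries above ctrl). The HL60 change was called with totals scaling (0.45). The difference between the lines in ch+ cells was −0.38 (SE 0.14, limma adjusted p = 0.545), with all 3 HL60 libraries below ML1.

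Directly against ch- cells, Fth1 in ch+ cells was higher by 0.38 (SE 0.12, limma adjusted p = 0.0586), and by 0.49 (SE 0.14, limma adjusted p = 0.0505, 3 of 3 libraries above) with ML1. The pooled call was lost without HL60 ch- replicate 527 (0.35) or 528 (0.34), ML1 ch- replicate 544 (0.34), or ML1 ch+ replicate 538 (0.33), 539 (0.32) or 541 (0.36). With ML1 it was lost without ch- replicate 544 (0.35) and without ch+ replicate 538 (0.47) or 539 (0.44). Both calls were also lost with no filter, quantile normalization or no variance trend. The Fth1 pseudogene Fth-ps2 ranged from 2.77 to 5.35 over the 21 libraries.

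Gclm (ENSMUSG00000028124, chr3:122245557-122270732, plus strand) encodes the modifier subunit of glutamate-cysteine ligase, the enzyme of the rate-limiting step of glutathione synthesis. It was 6.67, 6.36 and 5.58 in ctrl. Early values of Gclm were 6.51, 6.88 and 6.17 in HL60 ch-, 7.07, 6.44 and 6.48 in ML1 ch-, 6.52, 7.77 and 7.32 in HL60 ch+, and 6.70, 7.02 and 7.30 in ML1 ch+. Late Gclm values were 6.89, 7.01 and 7.31 with HL60 and 7.06, 7.30 and 7.29 with ML1. All 6 late libraries lay above every ctrl library, ch+ overlapped ctrl in 1 library, and ch- overlapped more widely. The means ran from 6.20 ± 0.56 (SD, n = 3) in ctrl to 7.22 ± 0.13 (SD, n = 3) in ML1 late, and no step between neighbouring groups exceeded their SDs. The genes Gm17494 and Gm6061 overlap Gclm, at 3.49 to 5.62 and 0.90 to 1.23.

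In late cells Gclm was higher by 0.94 (SE 0.28, limma adjusted p = 0.0204, 6 of 6 libraries above ctrl), and by 1.02 (SE 0.34, limma adjusted p = 0.0375, 3 of 3) with ML1. With HL60 the change was 0.87 (SE 0.34, limma adjusted p = 0.117, 3 of 3). It was called without ctrl replicate 373 (1.10) or HL60 ch+ replicate 523 (0.87) and with totals scaling (1.44), and it came to 0.56 without ctrl replicate 375. The pooled call was lost without ctrl replicate 375, the lowest for this gene (0.63), and without the 3 ML1 late libraries (0.87). The ML1 call was lost without ctrl replicate 375 (0.70) and without ML1 late replicate 582 (0.98) or 583 (0.98). In ch+ cells Gclm was higher by 0.90 (SE 0.28, limma adjusted p = 0.0715, 5 of 6 libraries above ctrl). That call was lost without ctrl replicate 374 (0.98) or 375 (0.59), HL60 ch+ replicate 524 (0.77) or 525 (0.86), or ML1 ch+ replicate 541 (0.87), and with no filter or the compared groups alone. With HL60 the ch+ change was 1.00 (SE 0.34, limma adjusted p = 0.116, 2 of 3), called without ctrl replicate 373 (1.23) or HL60 ch+ replicate 523 (1.34) and with totals scaling (1.10). With ML1 it was 0.81 (SE 0.34, limma adjusted p = 0.222, 3 of 3), or 0.49 without ctrl replicate 375.

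Gclc (ENSMUSG00000032350, chr9:77754535-77794485, plus strand) encodes the catalytic subunit of the same ligase. It was 6.16, 6.15 and 4.21 in ctrl, the last in replicate 375. Gclc at the early stage was 6.21, 5.99 and 5.91 in HL60 ch-, 6.18, 5.79 and 5.58 in ML1 ch-, 6.14, 5.68 and 6.14 in HL60 ch+, and 6.69, 5.69 and 6.04 in ML1 ch+. Its values in late cells were 6.05, 6.10 and 7.27 with HL60 and 6.86, 6.80 and 7.06 with ML1. The 3 ML1 late libraries lay above every ctrl library, the other groups overlapped ctrl, and the spread in ctrl came from 1 library. The means ran from 5.50 ± 1.12 (SD, n = 3) in ctrl to 6.90 ± 0.14 (SD, n = 3) in ML1 late, with no step beyond the SDs of neighbouring groups. Gclc was higher in late cells by 1.18 (SE 0.37, limma adjusted p = 0.0256, 4 of 6 libraries above ctrl) and with ML1 by 1.40 (SE 0.44, limma adjusted p = 0.0234, 3 of 3). Without ctrl replicate 375 these came to 0.54 and 0.75 and were not called, and without the 3 ML1 late libraries the pooled change was 0.97 and not called. With HL60 the late change was also 0.97 (SE 0.44, limma adjusted p = 0.185, 1 of 3), called without ctrl replicate 373 (1.30) or 374 (1.29) and with totals scaling (1.54), and it was 0.32 without ctrl replicate 375. Between late and early ch+ cells Gclc differed by 0.63 (SE 0.30, limma adjusted p = 0.187, 4 of 6 libraries above every ch+ library). This difference was called without ctrl replicate 375, where the value is the same, and with totals scaling (1.24).

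Gpx3 (ENSMUSG00000018339, chr11:54902453-54910377, plus strand) encodes the secreted glutathione peroxidase, a selenoprotein that reduces peroxides outside the cell, and it is also among the genes by which the study characterizes mesenchymal stromal cells. It was 13.05, 12.81 and 12.79 in ctrl. Early values of Gpx3 were 12.46, 12.81 and 12.48 in HL60 ch-, 12.72, 13.29 and 13.10 in ML1 ch-, 12.98, 13.38 and 12.60 in HL60 ch+, and 13.19, 13.59 and 13.27 in ML1 ch+. Late Gpx3 values were 13.83, 13.87 and 13.70 with HL60 and 14.02, 13.33 and 13.98 with ML1. All 6 late libraries lay above every ctrl library, and ML1 ch+ did too, whereas HL60 ch+ and both ch- groups overlapped ctrl. From low to high the means were HL60 ch- 12.58 ± 0.20, ctrl 12.88 ± 0.15, HL60 ch+ 12.99 ± 0.39, ML1 ch- 13.04 ± 0.29, ML1 ch+ 13.35 ± 0.21, ML1 late 13.78 ± 0.39 and HL60 late 13.80 ± 0.09 (SD, n = 3 each). The steps from ctrl to HL60 ch+, from there to ML1 ch- and between both late groups did not exceed the SDs of the neighbours, and the other steps did.

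Gpx3 was higher in late cells by 0.91 (SE 0.19, limma adjusted p = 0.000706, 6 of 6 libraries above ctrl), and the call held with each of the 21 libraries left out (0.86 to 1.00). With HL60 it was 0.92 (SE 0.18, limma adjusted p = 0.000549) and with ML1 0.89 (SE 0.18, limma adjusted p = 0.00039), 3 of 3 libraries above ctrl in each. Against early ch+ cells it was higher in late by 0.62 (SE 0.15, limma adjusted p = 0.00412, 5 of 6 libraries above every ch+ library), and relative to the median of all genes by 0.60. The ML1 ch+ change, 0.47 (SE 0.18, limma adjusted p = 0.156, 3 of 3 libraries above ctrl), was called when only the compared groups were fitted and without ML1 late replicate 582, where the value is the same. The ch+ against ch- change, 0.36 (SE 0.15, limma adjusted p = 0.231), was called without ML1 ch- replicate 544 (0.46) or HL60 ch+ replicate 525 (0.47) and with totals scaling (0.51). In ch- cells HL60 and ML1 differed by −0.45 (SE 0.18, limma adjusted p = 0.62).

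Srxn1 (ENSMUSG00000032802, chr2:152105516-152111376, plus strand) encodes sulfiredoxin, which restores overoxidized peroxiredoxins. It was 5.99, 6.32 and 4.96 in ctrl, again lowest in replicate 375. Srxn1 at the early stage was 6.42, 4.95 and 6.01 in HL60 ch-, 5.90, 6.25 and 5.86 in ML1 ch-, 6.22, 7.06 and 6.25 in HL60 ch+, and 6.54, 6.29 and 5.86 in ML1 ch+. Its values in late cells were 6.70, 6.17 and 6.31 with HL60 and 7.47, 6.68 and 7.87 with ML1. The ML1 late libraries were all above ctrl, and the other groups overlapped ctrl. The means ran from 5.76 ± 0.71 in ctrl to 6.51 ± 0.48 in HL60 ch+ and 7.34 ± 0.61 in ML1 late (SD, n = 3 each), and the step between the latter pair was the one beyond the SDs of its neighbours. In late cells Srxn1 was higher by 1.11 (SE 0.38, limma adjusted p = 0.0429, 4 of 6 libraries above ctrl), a call lost without ctrl replicate 375 (0.71), ML1 late replicate 583 (0.91) or the 3 ML1 late libraries (0.64). With ML1 the change was 1.58 (SE 0.42, limma adjusted p = 0.00623, 3 of 3), a call kept with each library left out. HL60 and ML1 late cells differed by −0.95 (SE 0.42, limma adjusted p = 0.356), a difference called when only those groups were fitted (limma adjusted p = 0.0924).

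Txnrd1 (ENSMUSG00000020250, chr10:82833951-82897712, plus strand) encodes the cytosolic thioredoxin reductase, another selenoprotein. It was 7.71, 7.65 and 8.07 in ctrl. Early values of Txnrd1 were 8.04, 7.60 and 7.35 in HL60 ch-, 7.02, 7.56 and 8.09 in ML1 ch-, 7.65, 7.63 and 7.78 in HL60 ch+, and 7.52, 6.64 and 7.79 in ML1 ch+. Late Txnrd1 values were 8.02, 8.30 and 7.66 with HL60 and 8.30, 8.28 and 8.20 with ML1. The ML1 late libraries were all above ctrl, HL60 late overlapped it, and ML1 ch+ replicate 539 was the lowest of all libraries. The means ran from 7.32 ± 0.60 (SD, n = 3) in ML1 ch+ through ctrl at 7.81 ± 0.23 to 8.26 ± 0.05 in ML1 late, with no step beyond the SDs of neighbouring groups. Txnrd1 was higher in late than in early ch+ cells by 0.62 (SE 0.21, limma adjusted p = 0.0365, 5 of 6 late libraries above every ch+ library). The call was lost without ML1 ch+ replicate 539 (0.45) and without the 3 ML1 late libraries (0.49). Against ctrl the late change was 0.32 (SE 0.25, limma adjusted p = 0.466, 4 of 6 libraries above ctrl), and 0.30 relative to the median of all genes. Eid3 lies within Txnrd1 on the same strand, at 3.12 to 5.15.

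Nqo1 (ENSMUSG00000003849, chr8:107388225-107403206, minus strand) encodes a quinone reductase that uses NADPH or NADH. It was 3.93, 3.57 and 3.51 in ctrl, near the filter of 3.32. Nqo1 at the early stage was 3.98, 4.39 and 4.40 in HL60 ch-, 3.47, 4.47 and 4.86 in ML1 ch-, 3.76, 5.16 and 4.36 in HL60 ch+, and 3.43, 5.04 and 4.11 in ML1 ch+. Its values in late cells were 3.44, 4.14 and 4.05 with HL60 and 4.32, 4.58 and 4.02 with ML1. The HL60 ch- and ML1 late libraries all lay above ctrl and the other groups overlapped it, with means from 3.67 ± 0.22 (SD, n = 3) in ctrl to 4.43 ± 0.70 (SD, n = 3) in HL60 ch+ and no step beyond the SDs of neighbouring groups. None of its changes passed the test, with 0.42 (SE 0.37, limma adjusted p = 0.515) in late, 0.64 in ch+ and 0.59 in ch- cells against ctrl.

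**Figure D3:**
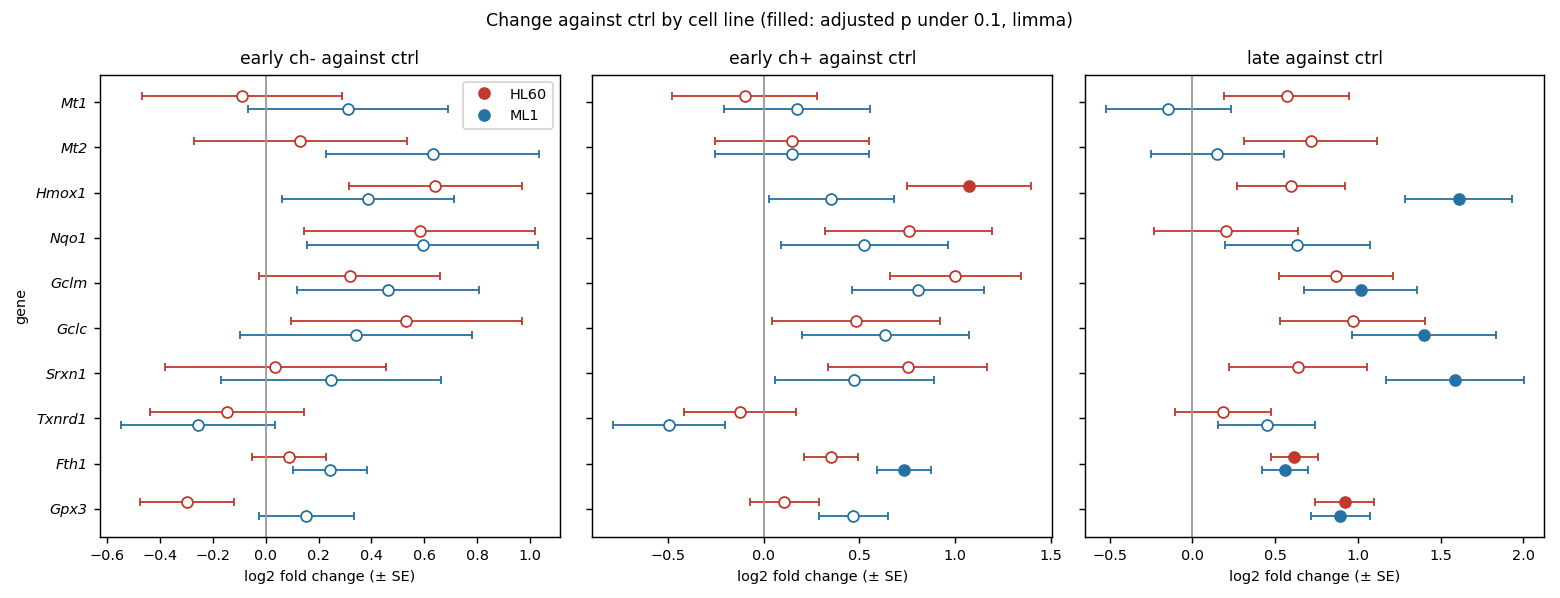
Log2 fold change (x axis, ± SE) of each of the 10 genes (y axis) against ctrl in early ch-, early ch+ and late cells, for HL60 and ML1 apart, with filled points where the limma adjusted p was under 0.1. In late cells 6 genes are filled for ML1 and 2 for HL60, Fth1 and Gpx3, and Hmox1 reads 1.61 with ML1. With scaling to library totals, the genes that also pass include Mt1, Mt2, Gclm and Gclc in HL60 late and Mt2 in ML1 late. Under this scaling Hmox1 and Srxn1 in HL60 late read 1.17 and 1.21, and Mt1 in ML1 late turns from −0.15 to 0.67.

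With scaling to the library totals, all 10 genes passed the test in late cells, among 8302 genes called (64% of all tested genes) of which 93.8% were higher, against 47.3% with the values as deposited. The distance of a gene's change from the median of all genes stays the same under this scaling. In these terms the late changes were 1.08 for Hmox1, 0.92 for Gclm, 1.16 for Gclc, 1.09 for Srxn1, 0.57 for Fth1 and 0.89 for Gpx3. Without ctrl replicate 375, 3 of the 10 genes and 17% of all tested genes were called in late, and without ctrl replicate 374, 5 of the 10 and 17.3%, against 6 of the 10 and 21.5% with all libraries. Without the 3 ML1 late libraries, whose labels contradict each other, 2 of the 10 were called, Fth1 and Gpx3, and 12.4% of all tested genes.

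Pathway genes beyond the 10 were counted by list. For these lists and the markers after them, the shares of all tested genes deregulated and higher are those given above, 21.5% and 10.2% in late, 6.17% and 3.41% in ch+, 6.26% and 3.58% between ch+ and ch-, and 19.7% and 8.79% between late and ch+ cells, with 1.92% deregulated in ch- cells. In late cells, 5 of 11 regulators of NRF2 activity were higher and none lower (10.2% of all tested genes were higher), with a list median of 0.57 beside 0.02 for all tested genes. Maff, a small MAF protein, was higher by 2.08 (SE 0.42, limma adjusted p = 0.000567), Bach1, the repressor of Hmox1, by 1.18 (SE 0.21, limma adjusted p = 0.000154), and its relative Bach2 by 1.2 (SE 0.43, limma adjusted p = 0.0532). The Bach2 call was lost without ctrl replicate 374 (0.99) or 375 (0.93), ML1 late replicate 582 (1.01) or the 3 ML1 late libraries (0.89). Taken by line, 3 of 11 were higher in HL60 late and 6 of 11 in ML1 late cells, beside 6.46% and 9.89% of all tested genes. Maff differed between the lines by −1.38 (SE 0.43, limma adjusted p = 0.0829; 1 of 11, where 4.09% of all tested genes were deregulated), a call lost without HL60 late replicate 397 (−1.40) or 398 (−1.13), or ML1 late replicate 581 (−1.48) or 583 (−1.06). In ch+ cells, 2 of 11 were higher than in ctrl (3.41% of all tested genes), Maff by 1.56 and Nfe2l2, NRF2 itself, by 0.50. Nfe2l2 was also higher in ch+ than in ch- cells by 0.47 (SE 0.13, limma adjusted p = 0.0283), whereas its call against ctrl was lost without ctrl replicate 373 (0.40) or 375 (0.47), HL60 ch+ replicate 524 (0.49), or ML1 ch+ replicate 539 (0.44) or 541 (0.44). That call was also lost with no filter, with no variance trend and when only the compared groups were fitted. The ch+ call of Maff was lost with no filter. In ch- cells Maff was the 1 of 11 higher (1.92% of all tested genes were deregulated), by 1.80, and without ctrl replicate 373 its calls were lost there (1.55) and in ch+ cells (1.31). Between late and early ch+ cells 3 of 11 were higher (8.79% of all tested genes), Bach2 by 1.41, Bach1 by 1.01 and Sqstm1, which sequesters KEAP1, by 0.44. The call of Sqstm1 was lost without HL60 ch+ replicate 525 (0.40), ML1 ch+ replicate 538 (0.39), HL60 late replicate 398 (0.41), or ML1 late replicate 582 (0.39) or 583 (0.43). Without the 3 ML1 late libraries, Sqstm1 (0.35) and Bach2 (1.09) were not called in that comparison.

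Of 19 tested genes of glutathione synthesis and use, 5 were higher and 1 lower in late cells, where 21.5% of all tested genes were deregulated and 10.2% were higher, with a list median of 0.12. The microsomal transferase Mgst1 was higher by 1.82 (SE 0.29, limma adjusted p = 2.38e-05), glutathione reductase Gsr by 1.39 (SE 0.22, limma adjusted p = 2.92e-05) and the transferase Gstt1 by 1.23 (SE 0.34, limma adjusted p = 0.0106). In ch+ cells 2 of 19 were higher than in ctrl (3.41% of all tested genes), the cytosolic peroxidase Gpx1 by 0.78 and glutaredoxin (Glrx) by 0.71, and both were also higher than in ch- cells, by 0.66 and 0.69. Against ctrl, the call of Gpx1 was lost without ctrl replicate 373 (0.76) or 375 (0.57), and that of Glrx without any of the 3 ctrl libraries (0.65 to 0.77) or ML1 ch+ replicate 538 (0.68) or 539 (0.53). With no filter both calls were lost, and that of Glrx also with no variance trend or only the groups compared. The call of Glrx against ch- cells was lost with no filter. Late and early ch+ cells differed in 7 of 19 (19.7% of all tested genes), with 4 higher and 3 lower in late, among them Gsr by 1.38, Mgst1 by 1.15 and Gpx1 by −1.24. In ch- cells limma called 0 of 19 against ctrl, with 4 at an unadjusted p under 0.05.

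Among 15 genes of the thioredoxin and peroxiredoxin system, 2 were higher and 1 lower in late cells, Selenow by 0.64, thioredoxin (Txn1) by 0.60 and Sesn3 by −0.60, with a list median of −0.05. That is 3 of 15 called, about the 21.5% of all tested genes. The calls were lost without ctrl replicate 374 for Txn1 (0.54), without ctrl replicate 373 for Sesn3 (−0.45, and 0.10 with totals scaling), and for Selenow without any of 6 libraries, ctrl replicate 374 or 375, HL60 late replicate 397 or 399, or ML1 late replicate 581 or 582 (0.26 to 0.66). Without the 3 ML1 late libraries none of these 3 was called (0.35 for Txn1, −0.36 for Sesn3 and 0.64 for Selenow). Sesn1 was the 1 of 15 lower in late than in ch+ cells (−0.66), a call lost without HL60 ch+ replicate 523 (−0.55) or ML1 late replicate 583 (−0.55), with totals scaling (−0.04) and without the 3 ML1 late libraries (−0.42). Of 5 superoxide and peroxide enzymes, catalase (Cat) was higher in late cells by 0.50, a call lost without ctrl replicate 375 (0.30) or the 3 ML1 late libraries (0.44), and extracellular Sod3 was higher in ch+ than in ch- cells by 0.83 (SE 0.17, limma adjusted p = 0.00217). Of 14 genes of heme and iron handling, the ferritin light chain Ftl1 was higher in late cells by 0.41 (SE 0.10, limma adjusted p = 0.00576), a call kept with each library left out. The heme transporter Slc48a1 was lower (−0.67, and 0.03 with totals scaling), a call lost without ctrl replicate 373 (−0.66) or 375 (−0.57), ML1 late replicate 582 (−0.59) or the 3 ML1 late libraries (−0.59). Between late and ch+ cells Ftl1 was higher by 0.33 and the transferrin receptor gene Tfrc lower (−1.09), the latter not without HL60 ch+ replicate 524 (−0.89) or HL60 late replicate 399 (−0.87), nor with totals scaling (−0.48).

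Of 13 tested genes of metal handling, none was higher and 2 were lower in late cells (21.5% of all tested genes were deregulated), the zinc transporters Slc39a13 by −0.71 (SE 0.16, limma adjusted p = 0.00149) and Slc39a10 by −0.54 (SE 0.21, limma adjusted p = 0.0856). The call of Slc39a10 was lost without ctrl replicate 375 (−0.19), HL60 late replicate 398 (−0.53) or 399 (−0.53), or ML1 late replicate 581 (−0.52) or 582 (−0.54), and without the 3 ML1 late libraries (−0.54), and with scaling to the totals it read 0.15 and Slc39a13 −0.02. Against ch+ cells both were lower in late (−0.80 and −0.52), and Slc39a14 was higher by 0.58, which makes 3 of 13, beside 19.7% of all tested genes. With totals scaling the first 2 read −0.18 and 0.10 and were not called, and without the 3 ML1 late libraries Slc39a10 (−0.52) and Slc39a14 (0.48) were not called. Mtf1, the metal-sensing factor, was not called, and Mt3, a metallothionein of the nervous system, lay between −1.57 and −1.43 in all 21 libraries. Against ctrl limma called 0 of 13 in ch+ and 0 of 13 in ch- cells, with 1 and 2 at an unadjusted p under 0.05.

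Of 14 tested genes of NADPH supply and further NRF2 targets, 2 were higher and 2 lower in late cells, where 21.5% of all tested genes were deregulated. G6pdx, the entry enzyme of the pentose phosphate pathway, was higher by 0.83 (SE 0.17, limma adjusted p = 0.000482), and the exporter Abcc1 by 0.83, a call lost without any of the 3 ctrl libraries (0.81 to 0.84) or ML1 late replicate 582 (0.73) or 583 (0.71), or without the 3 ML1 late libraries (0.45). Malic enzyme Me1 was lower (−0.95), a call lost without ctrl replicate 373 (−0.72) and with totals scaling (−0.26). In ch+ cells 2 of 14 were higher than in ctrl (3.41% of all tested genes), the quinone reductase Nqo2 by 0.94 and G6pdx by 0.55. Those calls were lost without ctrl replicate 374 (0.72) or 375 (0.90), HL60 ch+ replicate 523 (0.76) or 525 (0.96) or ML1 ch+ replicate 541 (0.93) for Nqo2, and without ctrl replicate 373 (0.43) or ML1 ch+ replicate 541 (0.48) for G6pdx. The Nqo2 call was also lost with no filter or no variance trend, and the G6pdx call with only the groups compared. Nqo2 was also higher in ch+ than in ch- cells by 0.97 (SE 0.25, limma adjusted p = 0.0167). Between late and ch+ cells 1 of 14 was higher and 3 were lower in late (19.7% of all tested genes were deregulated), with Me1 (−1.06) and Nqo2 (−0.83) among the lower, and the Nqo2 call was lost with totals scaling (−0.21) and without the 3 ML1 late libraries (−0.72). Of the 10 glucocorticoid-responsive genes, 5 were higher in late cells (10.2% of all tested genes) and none lower, Fkbp5 by 1.87 (SE 0.46, limma adjusted p = 0.00385), Tsc22d3 by 1.41 (SE 0.36, limma adjusted p = 0.00585) and Klf9 by 1.03 (SE 0.24, limma adjusted p = 0.00236), all kept with each library left out, replicate 398 included. Against ch+ cells 4 of the 10 were higher in late and 1 lower, beside 8.79% and 10.9% of all tested genes. Late cells of HL60 and ML1 differed in Dusp1 (−0.81) and Errfi1 (−0.80), both lower with HL60 (2 of 10, where 4.09% of all tested genes were deregulated and 0.932% were lower).

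Markers of other cell types moved with the groups. In bulk libraries, fewer cells of a type and less RNA per cell cannot be told apart. All 10 tested neutrophil markers were lower in late than in early ch+ cells, and 9 of 10 were higher in ch+ and in ch- cells than in ctrl, with S100a9 the most abundant. Their summed level, in normalized counts, was 104, 106 and 531 in the ctrl libraries (the highest in replicate 375), 1333 to 3121 (median 1606) in ch-, 1069 to 2747 (median 2055) in ch+ and 87.8 to 123 (median 105) in late. Of 10 erythroid markers, 8 were higher in ch+ and 7 in ch- cells than in ctrl, and 6 were lower in late cells, with Hbb-bs the most abundant. The erythroid sum was 408, 525 and 773 in ctrl, 5262 to 10452 (median 7894) in ch-, 4507 to 13119 (median 8690) in ch+ and 114 to 162 (median 129) in late. Between ch+ and ch- cells limma called 0 of either list, and 0 had an unadjusted p under 0.05, whereas markers of chondrocytes and smooth muscle differed there, as given below. Fth1 and Gclm were thus higher than ctrl in ch+ libraries in which blood cell markers were higher too, and the part of the latter was not tested.

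Macrophages express Hmox1 and ferritin strongly, and 2 of the 9 macrophage markers available passed the filter, with Mertk, at 7.56 to 9.59, the most abundant. Defining markers lay under the filter, Adgre1 at 0.33 to 1.14, C1qa at −1.49 to −1.38 and C1qb at 1.63 to 2.72 over the 21 libraries. The level of this cell type could not be read from these markers, and Mertk was lower in late cells (−0.89), a call lost without ctrl replicate 373 (−0.79) or 374 (−0.78), without the 3 ML1 late libraries (−0.61) and with totals scaling (−0.20). The general blood cell markers Ptprc and Itgb2 were both higher in ch+ cells than in ctrl, and Itgb2 in ch- cells too, and the ch+ call of Itgb2 (1.26) was lost without any of the 3 ctrl libraries (1.24 to 1.27) and its ch- call (1.57) without ctrl replicate 374 (1.57). Of 6 tested endothelial markers, limma called 0 against ctrl in late, ch+ and ch- cells, with 1, 0 and 0 at an unadjusted p under 0.05, and 3 were lower in late than in ch+ cells, calls lost with totals scaling and without the 3 ML1 late libraries. By line, 4 of 6 were lower in ML1 late cells than in ctrl (list median −0.98, where 22% of all tested genes were deregulated) and 0 of 6 in HL60 late cells (−0.06, 13.7%) by limma, which called 0 of 6 between the lines in late cells, with 3 at an unadjusted p under 0.05.

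Mesenchymal markers moved as well. Of 9 markers of CAR and Nes low cells, 6 were higher and 1 lower in late cells and 5 were higher in ch+ cells, with Cxcl12 the most abundant and a summed level of 71011, 46182 and 53342 in ctrl, 48498 to 92692 (median 75267) in ch-, 77392 to 116283 (median 97317) in ch+ and 111923 to 137042 (median 120732) in late. All 9 chondrocyte markers were lower in ch+ and late cells than in ctrl, with a sum of 157256, 71534 and 86068 in ctrl, 35182 to 87593 (median 55643) in ch-, 8154 to 27026 (median 13813) in ch+ and 2825 to 15541 (median 7139) in late, mostly Col2a1. They were also all lower in ch+ than in ch- cells (9 of 9, list median −3.21), where 6.26% of all tested genes were deregulated. Of 7 osteoblast markers, 6 were lower in late cells, mostly Col1a1, with a sum of 1232260, 1365950 and 1683220 in ctrl, 472197, 483516 and 378337 in HL60 late and 109390, 62213 and 74542 in ML1 late. All 7 were higher in HL60 late than in ML1 late cells, where 3.16% of all tested genes were higher. Of 6 smooth muscle markers, 5 were lower in ch+ cells and 4 in late cells than in ctrl, and 5 were lower in ch+ than in ch- cells (list median −1.97). Between late and ch+ cells, 4 of 6 smooth muscle markers were higher in late (list median 0.88), 6 of 7 osteoblast markers were lower, 1 of 9 chondrocyte markers was lower, and of the 9 markers of CAR and Nes low cells 4 were higher and 2 lower, where 19.7% of all tested genes were deregulated. The chondrocyte call there, Col2a1, was lost with totals scaling (−0.61) and without the 3 ML1 late libraries (−0.23). The part of these cell types in the levels of the 10 genes was not tested.

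The genes with the profile most like those of 9 of the 10 over the 21 libraries, by Pearson's r among all tested genes, are given as a description, and the groups contribute to each value. Mt1 was closest to the cystine transporter gene Ctns (r = 0.724, n = 21) and to Mt2 (0.721), and Mt2 to Sult1a1 (0.730) and Zbtb16 (0.721). Without HL60 late replicate 398, r between Mt1 and Mt2 was 0.401 (n = 20). Hmox1 was closest to Casp4 (0.854) and to the chaperone genes Dnaja1 (0.813) and Hspa8 (0.804). Gclc was closest to Plscr3 (0.850), Zbp1 (0.816) and Isg15 (0.800), the last a gene induced by interferon. Gclm was closest to Arrb2 (0.838), Srxn1 to Igfbp5 (0.853) and Txnrd1 to the amino acid transporter gene Slc7a1 (0.822). Fth1 was closest to Pon2 (0.886), Tcn2 (0.845) and Glrx (0.841), and Gpx3 to Rarres2 (0.910), Il17ra (0.886) and Loxl1 (0.876).

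Promoter sequences, from 250 bases before to 50 after the start, were in the RefSeq table (GRCm38.p6) for 8 of the 10 genes, and they were searched on both strands for the core of the metal response element (TGCACNC or TGCGCNC) and of the antioxidant response element (TGACNNNGC). Of all 32851 promoters of this length, 25.7% hold the former letters and 12.4% the latter. The former were found in 4 of the 8 genes, Mt1, Mt2, Gclm and Srxn1, and the latter in 4, Mt2, Gclm, Srxn1 and Txnrd1, at 1 of its 3 starts. Txnrd1 and Fth1 have more than 1 promoter, whereas the shares count single promoters. No promoter was given for Hmox1 and Gclc, and sequence outside the promoters was not searched. The promoters of the neighbouring pair Mt1 (chr8:94178839-94179138, plus strand) and Mt2 (chr8:94172368-94172667, plus strand), which were highest in the same library, are printed 5′ to 3′ with these letters in capitals. Mt1 holds 3 metal response cores, and Mt2 holds 4 and 1 antioxidant core, whose first letters also spell an AP-1 site (TGANTCA, found in 7.81% of all promoters and in 2 of the 8 genes, Mt2 and Srxn1).
Mt1: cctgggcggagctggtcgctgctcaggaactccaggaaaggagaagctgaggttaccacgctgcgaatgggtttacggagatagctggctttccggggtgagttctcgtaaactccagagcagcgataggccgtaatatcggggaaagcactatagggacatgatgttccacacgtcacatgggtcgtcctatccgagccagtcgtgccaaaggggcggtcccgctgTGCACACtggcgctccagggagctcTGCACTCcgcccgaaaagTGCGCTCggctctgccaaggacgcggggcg
Mt2: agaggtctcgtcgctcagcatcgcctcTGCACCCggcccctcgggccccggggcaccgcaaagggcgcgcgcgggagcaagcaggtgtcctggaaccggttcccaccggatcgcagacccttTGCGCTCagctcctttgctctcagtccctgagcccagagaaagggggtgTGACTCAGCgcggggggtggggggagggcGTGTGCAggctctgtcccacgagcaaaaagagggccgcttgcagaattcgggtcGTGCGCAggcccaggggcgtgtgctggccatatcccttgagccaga

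Gclm (chr3:122245307-122245606, plus strand) and Srxn1 (chr2:152105274-152105573, plus strand), both higher in late cells, are given in the same way. Gclm holds 1 antioxidant core that overlaps 1 of its 3 metal response cores, and Srxn1 holds 1 of each and 2 AP-1 sites, which are not in capitals, at 102 and 45 bases before the start. These are matches of letters, and binding was not measured.
Gclm: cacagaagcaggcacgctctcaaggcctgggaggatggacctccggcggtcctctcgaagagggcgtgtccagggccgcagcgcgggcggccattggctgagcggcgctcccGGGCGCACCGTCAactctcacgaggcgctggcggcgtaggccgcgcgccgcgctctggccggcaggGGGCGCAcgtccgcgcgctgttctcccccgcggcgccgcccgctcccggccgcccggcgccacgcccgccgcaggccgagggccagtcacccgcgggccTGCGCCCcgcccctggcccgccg
Srxn1: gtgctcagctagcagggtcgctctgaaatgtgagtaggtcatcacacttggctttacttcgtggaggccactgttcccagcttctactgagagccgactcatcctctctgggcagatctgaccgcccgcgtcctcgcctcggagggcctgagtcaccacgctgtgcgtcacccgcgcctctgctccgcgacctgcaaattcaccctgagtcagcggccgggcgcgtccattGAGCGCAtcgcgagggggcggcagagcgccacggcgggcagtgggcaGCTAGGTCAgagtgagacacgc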

How the data were processed

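The table holds regularized log2 values of normalized counts, deposited by the authors, who aligned reads with STAR 2.5.1b, quantified genes with RSEM 1.2.29 and transformed the counts with DESeq2 1.10.1 according to the labels, whereas the paper names another version of DESeq2. The label names a base of 10, but values from −2.33 to 22.44 are those of base 2. Ensembl IDs were matched to mouse symbols. Depth per library is unknown, since whole reads cannot be recovered from these values, and precision was read from the replicates. Genes with a mean of at least 3.32 (log2 of 10) were tested, 12976 of 26852. Python 3.11.15, pandas 2.3.3, numpy 2.4.6, R 4.3.3 and limma 3.58.1 were used, the last with empirical Bayes moderation, a variance trend, two-sided tests and Benjamini-Hochberg adjustment over the tested genes in each of 16 comparisons. A fit of 4 groups (ctrl, early ch-, early ch+, late) pooled HL60 and ML1, and a fit of 7 groups kept them apart. The scripts were tested on simulated data.

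The 10 genes and the lists (metal handling, NRF2 regulators, glutathione, thioredoxin and peroxiredoxin, superoxide and peroxide enzymes, heme and iron, NADPH supply and other NRF2 targets, glucocorticoid-responsive genes, and cell type markers) were chosen with earlier results of these data known. From a list, at most the 3 called genes with the largest change were named per comparison. Alternatives were no filter, a filter at a mean of 5, quantile normalization, scaling to the mean library total, no variance trend, a threshold of 0.05, only the groups compared, the mean of the lines in the fit of 7 groups, leaving out the 3 ML1 late libraries, and leaving out each library in turn. Further controls named in the study are not in the table.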

Additional observations from a re-analysis of the deposited data

Results flagged for a closer look

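For each of the 10 genes, the 6 libraries of early ch-, early ch+ and late cells were searched for a library far from the other 5, and 3 of 30 such sets held one, where chance gives about 1 in 20. Mt2 in late cells was 9.47 in HL60 replicate 398, with the nearest library at 7.87. Fth1 in late cells was 12.13 in the same replicate, with the nearest at 11.83. Txnrd1 in early ch+ cells was 6.64 in ML1 replicate 539, with the nearest at 7.52. The cause was not tested.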

How the results depend on the processing

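Each group by line holds 3 libraries, of unknown depth, and all comparisons with ctrl rest on the same 3. Leaving out a library leaves 2 in its group. No paired analysis was possible because the labels give no mouse for the ch+ and ch- libraries, which share marrow, and no replicate number in common. With a filter at a mean of 5, 215 of 217 results kept their direction and their side of the threshold (counts of genes within 1.5 times), as did 178 of 178 with the mean of the lines; Nqo1 drops out under the former filter. The same held for 197 of 230 with no filter, 223 of 230 with quantile normalization, 211 of 230 with no variance trend, 212 of 230 with only the groups compared, 201 of 230 at 0.05, 181 of 230 with scaling to the totals and 68 of 100 without the 3 ML1 late libraries. Where fewer genes or libraries do not account for a change, the cause was not tested.

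With no filter, which adds genes to the adjustment, the genes called came to 427 in HL60 ch+, 133 in HL60 ch- and 178 in ML1 ch- against ctrl, and between the lines to 8 in ch+ and 1 in ch- cells. No filter also cost the late calls of Bach2, Selenow, Slc39a10, Slc48a1 and Abcc1 against ctrl and that of Sqstm1 against ch+ cells. Those of Selenow and Slc39a10 were likewise lost with no variance trend and with only the groups compared. Quantile normalization gave 4 between the lines in ch+ cells. With no variance trend the counts were 170 in ML1 ch- against ctrl and 0 between the lines in ch+ and in ch- cells. With only the groups compared they were 126 in HL60 ch-, 552 in ML1 ch+ and 181 in ML1 ch- against ctrl, and between the lines 990 in late and 4 in ch- cells. At 0.05 they were 512 in ch+, 156 in ch-, 461 in HL60 ch+, 133 in HL60 ch- and 178 in ML1 ch- against ctrl, and 0 between the lines in ch- cells.

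Scaling to the totals, which raises late libraries by its construction, gave 8302 genes in late, 5527 in HL60 late and 8781 in ML1 late against ctrl, and 9031 in late against ch+. It turned Slc39a10 (0.15), Sesn3 (0.10) and Slc48a1 (0.027) in late and Mt1 in ML1 late (0.67) against ctrl, Mt1 (0.078) and Txnrd1 (0.044) in ch+ against ch-, and Nqo1 (0.40) and Slc39a10 (0.10) in late against ch+. Without the 3 ML1 late libraries, 1613 genes were called in late against ctrl and 1475 against ch+, where Hmox1 turned to −0.12 and Gclm to −0.036.

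Leaving out each library in turn, in late against ctrl, Mt1 ran from −0.061 (without ctrl 375) to 0.45 (374). In ch+ against ctrl, Mt1 ran from −0.24 (375) to 0.28 (374) and Gclc from −0.089 (375) to 0.89 (373). In ch- against ctrl, genes called ran from 136 (ctrl 374) to 280 (HL60 ch- 528), Mt1 from −0.16 (375) to 0.35 (374), Gclc from −0.21 (375) to 0.76 (373), Srxn1 from −0.26 (375) to 0.42 (374) and Gpx3 from −0.17 (ML1 ch- 544) to 0.014 (373).

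In ch+ against ch-, Mt1 ran from −0.17 (527) to 0.012 (525), Nqo1 from −0.12 (524) to 0.23 (538), Gclc from −0.0031 (538) to 0.20 (524) and Txnrd1 from −0.23 (543) to 0.066 (539). In late against ch+, Mt1 ran from −0.10 (398) to 0.31 (582), Mt2 from −0.062 (398) to 0.42 (581), Gclm from −0.079 (523) to 0.17 (524) and Fth1 from −0.016 (398) to 0.10 (539).

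By line, Mt2 in HL60 late ran from −0.0057 (398) to 1.15 (399), Mt1 in ML1 late from −0.42 (375) to 0.10 (374), Mt2 in ML1 late from −0.056 (583) to 0.34 (581) and Mt2 in HL60 against ML1 late from −0.16 (398) to 1.00 (399). Genes called ran from 106 (529) to 227 (541) in HL60 ch- and from 180 (374) to 340 (541) in ML1 ch- against ctrl, from 295 (528) to 541 (373) in HL60 ch+ against ch-, and between the lines from 0 (523) to 6 (538) in ch+ and from 0 (527) to 10 (541) in ch- cells.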
